A study of Mus musculus with 12 samples.

Results

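Mouse genes known only as computer-predicted models, whose symbols begin with Gm and a number, and genes still named after RIKEN cDNA clones, whose symbols end in Rik, carried 809 of the 38343 m6A peaks listed in primary mouse keratinocytes. Members were taken by name from the authors' peak lists. They held 379 of 18423 peaks in differentiated cells at day 4 (2.06%) and 430 of 19920 peaks in undifferentiated cells at day 0 (2.16%). The peaks lay under 220 of 7992 gene names, 43 of the Gm kind and 177 of the Rik kind, and each name is counted here as 1 locus. The same rule took 42 of 2561 differentially methylated sites, under 39 names, and 375 of 7978 differentially expressed genes. It also took Gm2a, which is not a predicted model but the established gene of the GM2 ganglioside activator, with 1 peak at day 0.

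N6-methyladenosine, m6A, is the commonest internal modification of messenger RNA. A nuclear complex built around METTL3 and METTL14, with accessory subunits such as WTAP and VIRMA, writes it at adenosines in short consensus sequences, typically in long exons and around stop codons. Reader proteins such as the YTH family bind it and affect splicing, export, translation and decay. Names of the Gm and Rik kinds cover very different things: protein-coding genes awaiting a name, long noncoding RNAs, transcripts that run from one gene into the next, and pseudogenes, which are often processed copies of an expressed parent gene.

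The day 4 groups were primary keratinocytes taken through a calcium shift, which induces differentiation, and the day 0 groups were the undifferentiated cells kept at 0.05 mM calcium. Both came from newborn mouse epidermis and had been grown to passage 3 on growth-arrested 3T3 fibroblast feeders. Each day had 3 libraries of m6A-immunoprecipitated fragmented polyadenylated RNA and 3 libraries of input RNA. The deposited lists give 1 value per peak, site or gene for all libraries of a day or comparison together, so no value per library can be shown and library depth is unknown. Fewer cells of a type and less RNA per cell cannot be told apart in such bulk samples. Of 10 keratinocyte markers, all 10 had a listed peak, and 8 were in the expression table. Of these 8, 5 were higher at day 4 and 3 lower, at mean normalized counts of 3145 to 209477. Of 12 feeder fibroblast markers 0 had a peak and 2 were in the expression table, both higher at day 4, at mean normalized counts of 50.9 and 305, and their part in the results was not tested. Of 8 melanocyte markers 1 had a peak and 2 were in that table, both higher at day 4. Of 6 immune markers 0 had a peak and 1 was in that table, lower at day 4. The expression table lists called genes only, so a marker missing from it may still have been expressed.

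For 168 of the 220 loci the RefSeq promoter table (GRCm38.p6, the assembly of the mm10 build used in the files) holds the window from 250 bases before the start to the first 50 transcribed bases. A listed peak reached those first 50 bases at 7 of the 168 loci (4.17%), and the share among other names was not computed. The windows shown are those with at least 10 bases under a peak, because they are the ones where a sequence can be set beside the mark. Each is printed 5′ to 3′ on the transcript strand, and capitals mark the bases under a listed peak.
2310007B03Rik (Mab21l4), chr1:93160821-93161120, minus strand: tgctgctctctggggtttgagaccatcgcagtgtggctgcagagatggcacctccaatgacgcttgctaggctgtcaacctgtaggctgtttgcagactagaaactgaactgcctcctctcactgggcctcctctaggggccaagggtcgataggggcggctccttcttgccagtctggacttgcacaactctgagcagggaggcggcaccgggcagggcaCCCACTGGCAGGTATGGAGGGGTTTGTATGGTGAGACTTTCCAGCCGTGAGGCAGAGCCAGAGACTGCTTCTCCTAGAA
2310045N01Rik (Borcs8), chr8:70139249-70139548, plus strand: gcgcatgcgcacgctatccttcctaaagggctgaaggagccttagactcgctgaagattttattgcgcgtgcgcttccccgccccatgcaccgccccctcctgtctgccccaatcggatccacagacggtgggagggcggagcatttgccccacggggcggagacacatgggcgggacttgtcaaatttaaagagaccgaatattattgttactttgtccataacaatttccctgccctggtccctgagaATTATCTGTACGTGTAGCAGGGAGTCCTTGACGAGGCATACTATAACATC
4933439C10Rik, chr11:59505403-59505702, plus strand: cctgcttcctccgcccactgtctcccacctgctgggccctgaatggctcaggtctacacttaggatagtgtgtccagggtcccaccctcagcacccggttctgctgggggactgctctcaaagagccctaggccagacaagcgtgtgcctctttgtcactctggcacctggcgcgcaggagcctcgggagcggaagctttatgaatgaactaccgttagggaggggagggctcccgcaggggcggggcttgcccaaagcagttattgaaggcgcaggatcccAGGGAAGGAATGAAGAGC
Gm21992, chr19:4811550-4811849, minus strand: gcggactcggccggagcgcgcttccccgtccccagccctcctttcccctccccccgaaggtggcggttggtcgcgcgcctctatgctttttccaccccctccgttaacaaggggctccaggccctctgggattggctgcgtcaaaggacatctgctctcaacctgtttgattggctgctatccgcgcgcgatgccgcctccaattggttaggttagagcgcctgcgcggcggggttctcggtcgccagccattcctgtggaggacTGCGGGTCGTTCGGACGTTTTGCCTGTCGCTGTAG
1810026J23Rik (Timm29), chr9:21592472-21592771, plus strand: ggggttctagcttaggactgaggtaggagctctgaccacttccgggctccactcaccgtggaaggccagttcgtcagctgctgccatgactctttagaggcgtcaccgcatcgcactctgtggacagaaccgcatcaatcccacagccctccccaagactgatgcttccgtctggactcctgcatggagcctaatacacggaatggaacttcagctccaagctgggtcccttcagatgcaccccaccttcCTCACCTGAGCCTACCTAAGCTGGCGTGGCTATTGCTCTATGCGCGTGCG

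Mab21l4, whose human counterpart is known from squamous epithelial differentiation, had its peak there at day 4 only, a region of 667 bp on the genome. The window is that of the more downstream of its annotated starts, so the capitals run over 79 bases. Borcs8 codes for a subunit of BORC, the complex that positions lysosomes, and had the same 100 bp peak on both days. The lncRNA 4933439C10Rik and the readthrough gene Gm21992, which runs across Rbm14 and Rbm4, also had theirs on both days. Timm29 codes for a subunit of the carrier translocase of the mitochondrial inner membrane and had its 50 bp peak at day 0 only. The 4-base motif GGAC, a form of the core of the m6A consensus, was the only motif searched, on the transcript strand. Other forms of the consensus were not searched. In the capitals, which run over 18 to 79 bases, GGAC stood for Gm21992 alone among these 5. Of all 32851 windows in the table, 18.9% hold it in their first 50 transcribed bases and 65.6% hold it anywhere. The stretches differ in length and the longer peaks reach past the windows, so these values are not a like comparison. Antibodies to m6A also bind m6Am, a modified nucleotide next to the RNA cap, and the 2 marks cannot be told apart in these peaks.

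RefSeq matched 219 of the 220 names, 144 by current symbol and 75 by an older synonym. Gm20219 had no match. The 219 names fell on 218 RefSeq genes, because Hjurp was listed under 2 member names and is counted as 2 protein-coding loci. Protein-coding genes made up 152 of the loci, lncRNAs 46 and pseudogenes 21. For 74 loci the current symbol is by now a proper gene name, and 63 of these code for proteins, so the older annotation behind the lists hides known genes such as the m6A writer subunit Virma (1110037F02Rik). The RefSeq table used gives gene spans without exons, so peaks were not assigned to exons, introns or UTRs. All listed peaks of 204 loci overlapped their own RefSeq span, without regard to strand.

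The members had fewer peaks per locus than other names, 2.19 at day 4 and 2.21 at day 0, against 2.66 and 2.71 for all other names. Loci with a single peak were 69 of 173 at day 4 (39.9%) and 91 of 195 at day 0 (46.7%), against 32.4% and 32.8% of other names. The median enrichment score, the authors' own value whose scaling between days is not stated, was 18.4 for members and 17.0 for other names within the day 4 list. Within the day 0 list it was 16.2 for members and 21.5 for other names. Member peaks spanned a median of 149 bp on the genome at day 4 and 148 bp at day 0, other peaks 150 bp and 198 bp. Every member peak had an unadjusted p of at most 0.00782 at day 4 and 0.00890 at day 0 in the authors' lists.

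Of the 220 loci, 25 had peaks at day 4 only (11.4%), 148 on both days (67.3%) and 47 at day 0 only (21.4%). Among other names 7.57% had peaks at day 4 only, 79.6% on both days and 12.9% at day 0 only. The lncRNAs were most often listed on 1 day, with 25 of 46 on both days, and the pseudogenes least often, with 16 of 21. Protein-coding members stood between, with 107 of 152. For 12 of the 21 pseudogenes the peaks lay at a gene on another chromosome than RefSeq gives for the pseudogene. At the level of single peaks, 280 of 379 day 4 peaks (73.9%) shared at least 1 bp on the same strand with a day 0 peak, against 79.0% for other names. In the other direction 272 of 430 day 0 peaks (63.3%) overlapped a day 4 peak, against 70.4% for other names. These shares describe the 2 lists, and without values per library their differences were not tested.

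**Figure D1:**
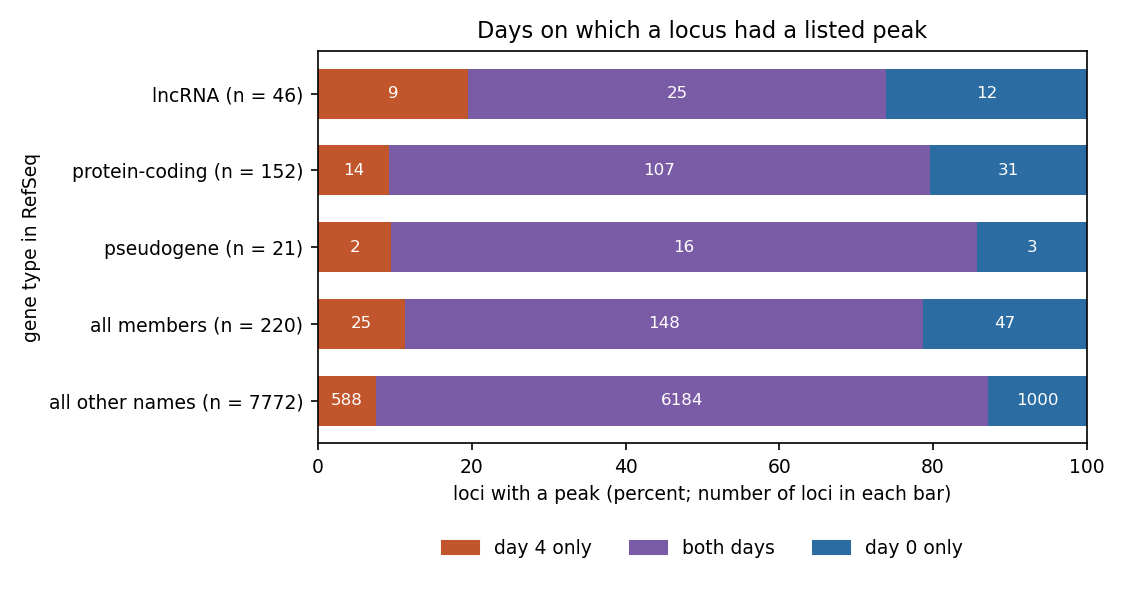
Share of loci (percent, horizontal axis) with listed m6A peaks at day 4 only, on both days or at day 0 only, for the lncRNA, protein-coding and pseudogene members, all members and all other names (vertical axis), with the number of loci printed in each bar. Loci listed on both days are 25 of 46 for lncRNAs and 16 of 21 for pseudogenes. The peaks of 12 of the 21 pseudogenes lie at a gene on another chromosome.

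Of the 8 loci with the highest-scoring peaks, 3 have a present gene name and 5 keep a Gm or Rik symbol. At day 4 the first was in A230046K03Rik, now Washc4, a subunit of the WASH complex that nucleates actin on endosomes, at chr10:83591709-83594537 on the plus strand (mm10, score 833 in the authors' list). The second lay at chr9:21067564-21067863 on the minus strand under Gm38431, a lncRNA that runs across Raver1 and Fdx1l (score 785). It was followed by Shld1 (1110034G24Rik, 565), a shieldin subunit that protects broken DNA ends, by 1810013L24Rik (370) and by 1600012H06Rik (290). Within the day 0 list Gm38431 came first at 1203, with the peak reaching 50 bases further, to 21067913. After it came 2310057M21Rik (893), Washc4 (650), B230219D22Rik (581) and the lncRNA Norad (561), which binds Pumilio proteins in human and mouse cells. All 8 of these loci were listed on both days, and the Norad peak had identical ends on both, chr2:156392036-156392433 on the minus strand. The authors' lists file Norad as 2900097C17Rik beside the description of seipin, another gene, although the peak lies in the RefSeq span of Norad.

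A few loci carried many peaks. Usf3 (Gm608), a transcription factor of the upstream stimulatory family, had 12 peaks at day 4 and 9 at day 0. Resf1 (2810474O19Rik), a factor that silences retroelements, had 11 at day 4 and 8 at day 0. For 9930021J03Rik the lists held 8 peaks at day 4 and 10 at day 0, and for 2610507B11Rik 5 at day 4 and 8 at day 0. Virma itself carried 5 at day 4 and 7 at day 0 and was in neither comparison table. For 6430548M08Rik there were 4 at day 4 and 8 at day 0, and for Jcad (9430020K01Rik), which codes for a protein of endothelial cell junctions, 6 on each day. Of the 16 loci with at least 8 peaks over both lists, 2 had more at day 4, 4 had equal numbers and 10 had more at day 0. Over the 148 loci listed on both days the numbers were balanced, with 41 having more at day 4, 67 equal and 40 more at day 0.

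**Figure D2:**
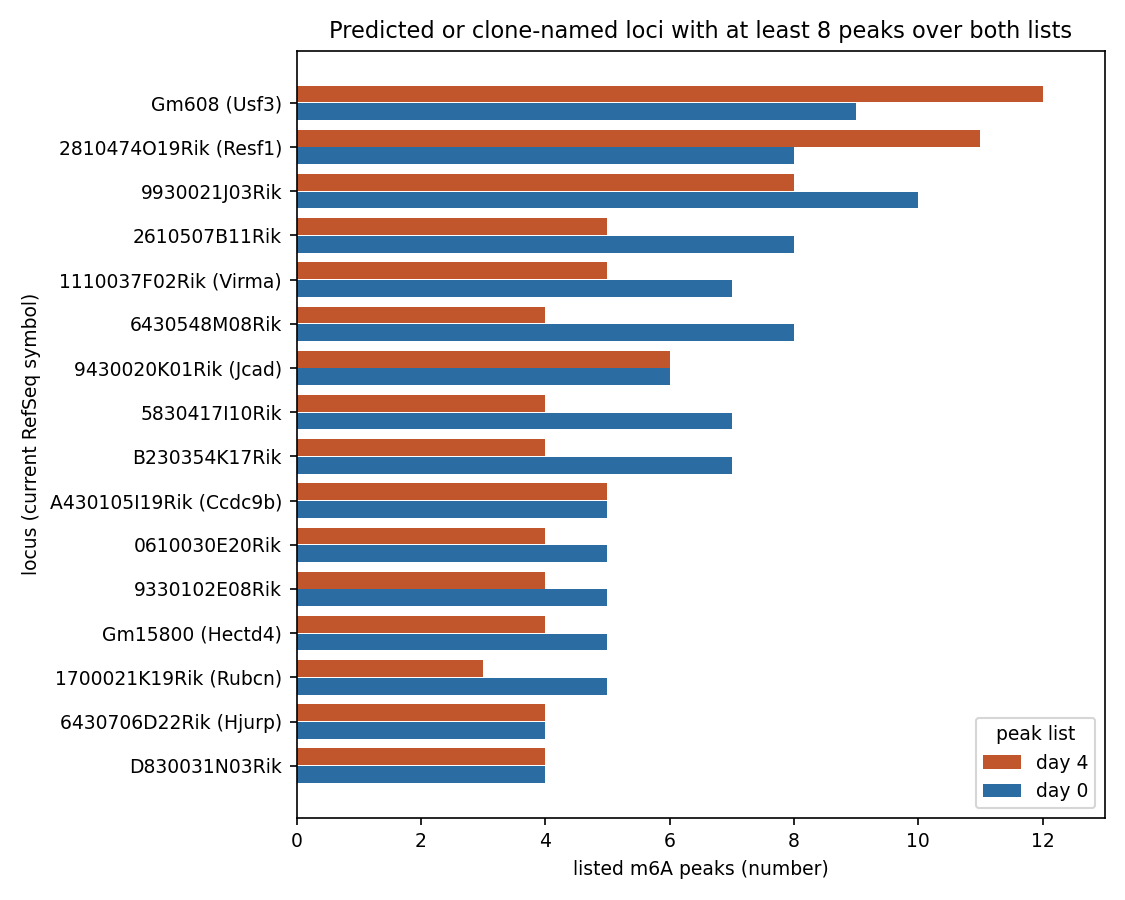
Number of listed m6A peaks (horizontal axis) at day 4 (upper bar) and day 0 (lower bar) for the 16 loci with at least 8 peaks over both lists (vertical axis). Usf3 and Resf1 are the 2 loci with more peaks at day 4, 12 against 9 and 11 against 8.

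A share of these peaks was listed a second time under another gene. A peak of a name outside the members overlapped 34 of 379 member peaks at day 4 (8.97%) and 32 of 430 at day 0 (7.44%). Among peaks of other names 0.665% and 0.662% overlapped a peak of any different name. That count includes overlaps with members, so the shares are not built alike. For 13 of the 220 loci the peaks lay on another chromosome than the locus has in RefSeq, and 12 of these were pseudogenes, of 21 in all. Gm5424, a pseudogene placed on chromosome 10, had its peaks on chromosome 2 inside Ass1, the argininosuccinate synthase gene. Gm6644, placed on chromosome 1, had its 2 day 4 peaks on chromosome 6 inside Akr1b3, the aldose reductase gene. Gm10052 and Gm5643 had theirs at Hnrnpa1, Gm12669 at Glrx3, Gm13363 at Ptp4a1, Gm5512 at Rmnd1, Gm7367 at Ubald2, Gm15772 at Rpl26, Gm1821 at Ubb, Gm7334 at Btg3 and Gm5801 at Ube2j2. The exception among the 13 was Gm10094, now the protein-coding Sap18b, with its peaks at Sap18 on chromosome 14.

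Expression values under the paired names were close. In the authors' deposited table the log2 fold change was -1.18 for Gm5424 and -1.19 for Ass1 (SE 0.12 each). Gm6644 had 2.55 (SE 0.19) and Akr1b3 2.53 (SE 0.19) in the authors' deposited table. Over 14 such pairs with a row for each name, involving 13 member names, the 2 log2 fold changes differed by at most 0.11. In all 14 the difference was less than the smaller of the 2 SEs. Both rows of a pair come from the same libraries, so these SEs do not measure the spread of that difference. Hjurp, the chaperone that loads the centromeric histone, appeared under 3 names, with -0.74 for 6430706D22Rik, -0.71 for A730008H23Rik and -0.71 for Hjurp in the authors' deposited table. 1700047I17Rik2 and Fam177a carried identical rows (1.02, SE 0.12) in the authors' deposited table. The sources used here do not describe the counting step, so reads of a pseudogene and its parent, or of a readthrough RNA and its component genes, cannot be told apart.

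**Figure D3:**
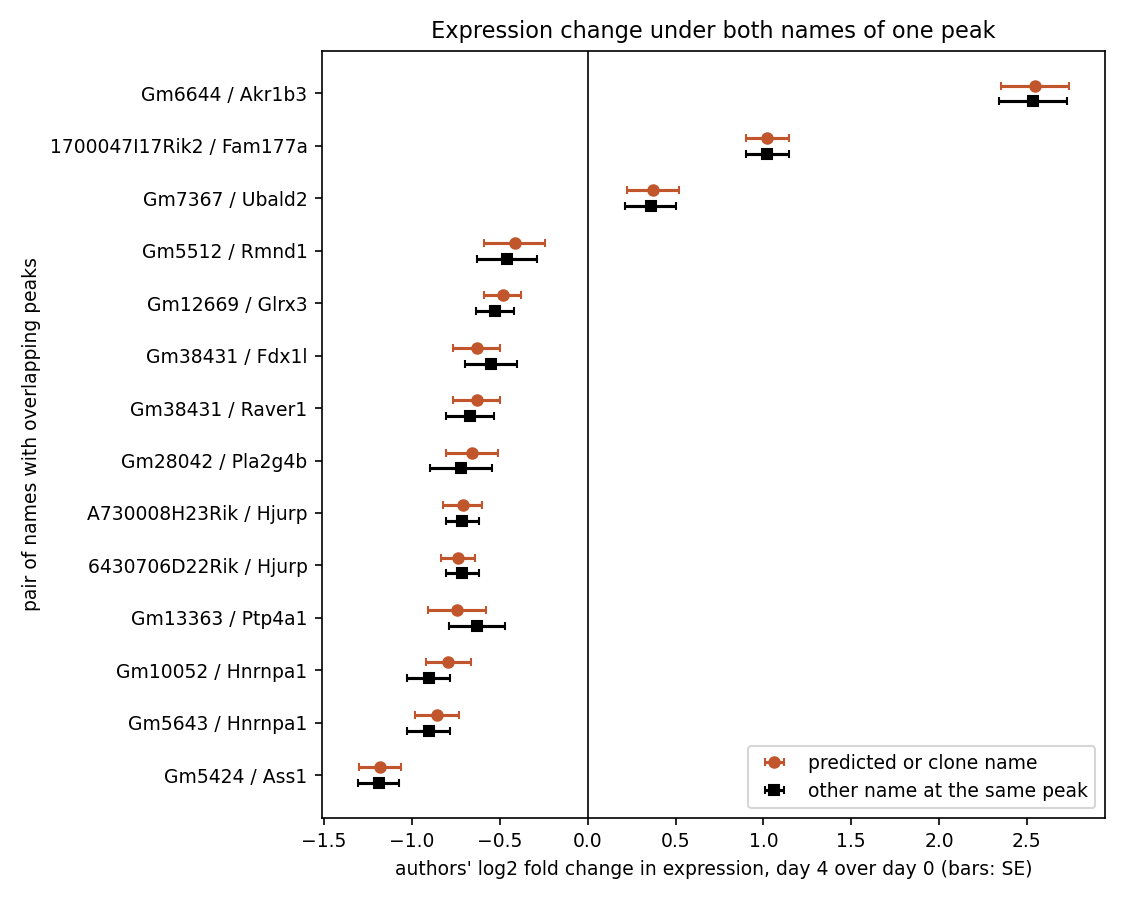
The authors' log2 fold change in expression, day 4 over day 0 (horizontal axis, bars show SE), for 14 pairs of names with overlapping peaks (vertical axis), the predicted or clone name as circles above the other name as squares. The 2 values of a pair differ by at most 0.11.

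The methylation table lists 42 member sites at a false discovery rate of at most 0.05, where its adjustment implies that 6.96% of 36796 tested sites were called. Gains at day 4 were 25 (59.5%) and losses 17, against 68.8% gains among all listed sites. At a false discovery rate under 0.01, which 3.70% of all tested sites met and 2.69% met as gains, 7 of 16 member sites were gains (43.8%), against 981 of 1346 sites of other names (72.9%). This difference was not tested. Over all sites tested 4.79% were called as gains and 2.17% as losses, and how many member sites were tested is not known. The median finite change was 1.78 for member gains and -0.90 for member losses in the authors' deposited table, against 1.82 and -0.83 for all listed sites. These are log fold changes of day 4 over day 0 whose base the sources used here do not give. The direction was read from the other names, where 407 of 411 sites overlapping only a day 4 peak were positive and 86 of 113 overlapping only a day 0 peak were negative.

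Gains without a listed peak were about as common among members as among other names. Of the 17 losses 12 overlapped peaks of both lists, 1 of the day 4 list only and 4 of the day 0 list only, leaving 0 without a peak. Of the 25 gains 8 overlapped both lists, 7 the day 4 list only, 2 the day 0 list only and 8 no listed peak. Those without a listed peak were 32.0% of member gains, against 28.0% of gains and 11.3% of losses among other names. These differences were not tested. By gene type, 16 of 29 protein-coding sites, 6 of 8 lncRNA sites and 3 of 5 pseudogene sites were gains. The pseudogene gains included the sites of Gm5424 and Gm6644, which lay at Ass1 and Akr1b3.

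The largest finite gain was at Rex1bd (2810428I15Rik), chr8:70504343-70504392 on the minus strand, at 5.11 in the authors' deposited table, with a false discovery rate of 3.1e-04. A second gain in Rex1bd overlapped the only peak of that gene, listed at day 4. Borcs7, another BORC subunit (2010012O05Rik), followed with 4.72, 1810037I17Rik with 3.36 and E130309D02Rik with 2.66 in the authors' deposited table. Gm16386, a pseudogene, had 2.52, Gm5424 2.41, the snoRNA host gene Snhg15 (Gm11974) 2.36, Gm10094 2.20 and the lncRNA D930048N14Rik 1.93 in the authors' deposited table. The sites of Gm5424 and Ass1 overlapped, at 2.41 and 2.51 in the authors' deposited table, as did those of Gm6644 and Akr1b3 at 1.30 and 1.33. Infinite gains were listed for Mab21l4 (false discovery rate 0.0471) and for Gm20605 (0.00180), and neither site overlapped a listed peak. Nor did the sites of Rex1bd at 5.11, Borcs7, 1810037I17Rik, Gm16386, Snhg15 and D930048N14Rik. The Gm20605 site overlapped 1 of Lrch4, which was listed as an infinite gain too.

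The largest loss was at 1810013L24Rik, chr16:8857782-8857831 on the plus strand, at -5.47 in the authors' deposited table, with a false discovery rate of 0.00206. That site overlapped a day 0 peak and no day 4 peak, although 3 day 4 peaks and 2 day 0 peaks were listed for the locus. The next were Gm14325 (-1.60), the lncRNA Dubr (5330426P16Rik, -1.32) and 9930021J03Rik, with sites at -1.22 and -0.92 in the authors' deposited table. Oip5os1 (1700020I14Rik), the lncRNA known as Cyrano that directs decay of the microRNA miR-7 in mouse, lost methylation at 1 site (-1.07) in the authors' deposited table. B230219D22Rik (-1.03), E130308A19Rik (-0.93), Eola1 (1110012L19Rik, -0.90) and D030056L22Rik (-0.89) made up the rest of the 10 largest losses that the authors' deposited table gives for members. E130308A19Rik stood apart in the peak lists too, with 0 peaks at day 4 and 6 at day 0, and was not in the expression table.

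**Figure D4:**
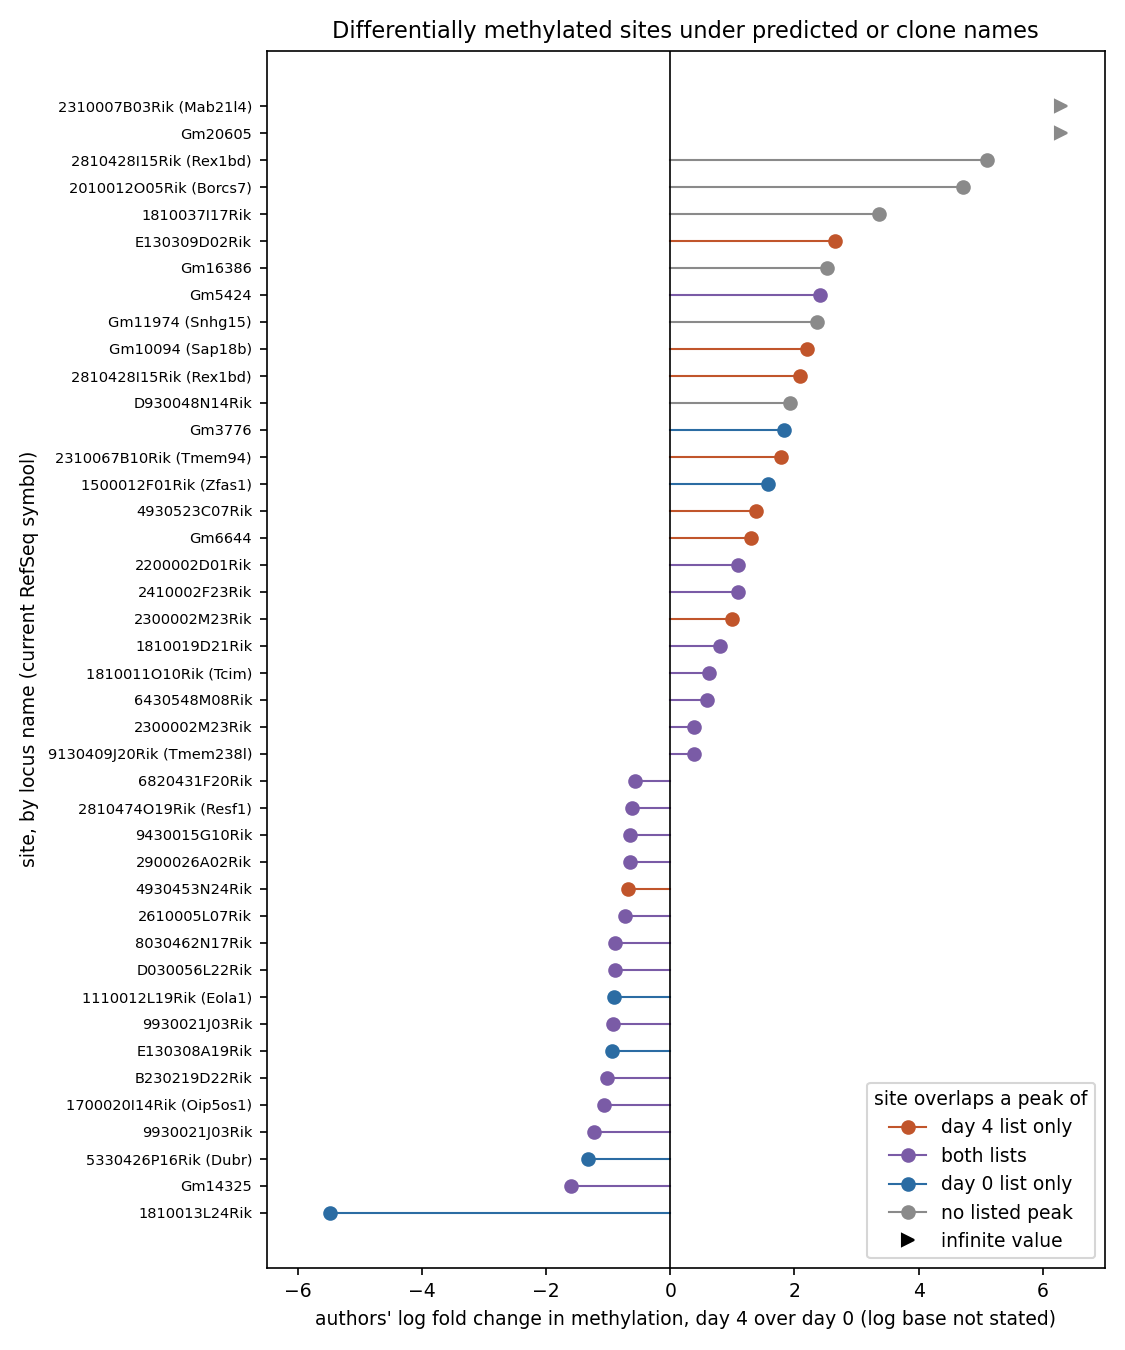
The authors' log fold change in methylation, day 4 over day 0 (horizontal axis, base not stated), at the 42 differentially methylated member sites, 1 row a site (vertical axis), coloured by the peak list the site overlaps, with triangles at the right edge for the 2 infinite values. The sites with no listed peak, in grey, are all among the 25 gains.

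The expression table lists 375 members, 237 higher at day 4 and 138 lower (63.2% higher), against 3803 higher of 7603 other names. Over all 14924 genes the adjustment implies were tested, 53.5% were listed, 27.1% as higher and 26.4% as lower, and how many members were tested is not known. Low levels marked many of the members: 183 of 375 (48.8%) had a mean normalized count under 100, against 18.3% of other names. At a mean of 100 or more, 93 of 192 members were higher (48.4%), close to the 46.2% of other names. Of the 52 members under a mean of 10, 46 were higher (88.5%) and 51 had no listed peak, against 334 of 395 other names higher (84.6%) and all 395 without a peak. The 225 members without a peak had a median mean count of 33.8 and a median log2 fold change of 1.21, and 168 of them were higher (74.7%) in the authors' deposited table. The 150 with a peak had a median mean count of 440 and a median log2 fold change of -0.35, and 69 of them were higher (46.0%) in the authors' deposited table. Among other names with a peak the median was -0.30 and 47.2% were higher, and among those without a peak it was 0.49 and 55.7%. At a mean of 100 or more, 28 of 53 members without a peak were higher (52.8%), with a median of 0.28 in the authors' deposited table, against 515 of 1216 other names without a peak (42.4%).

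**Figure D5:**
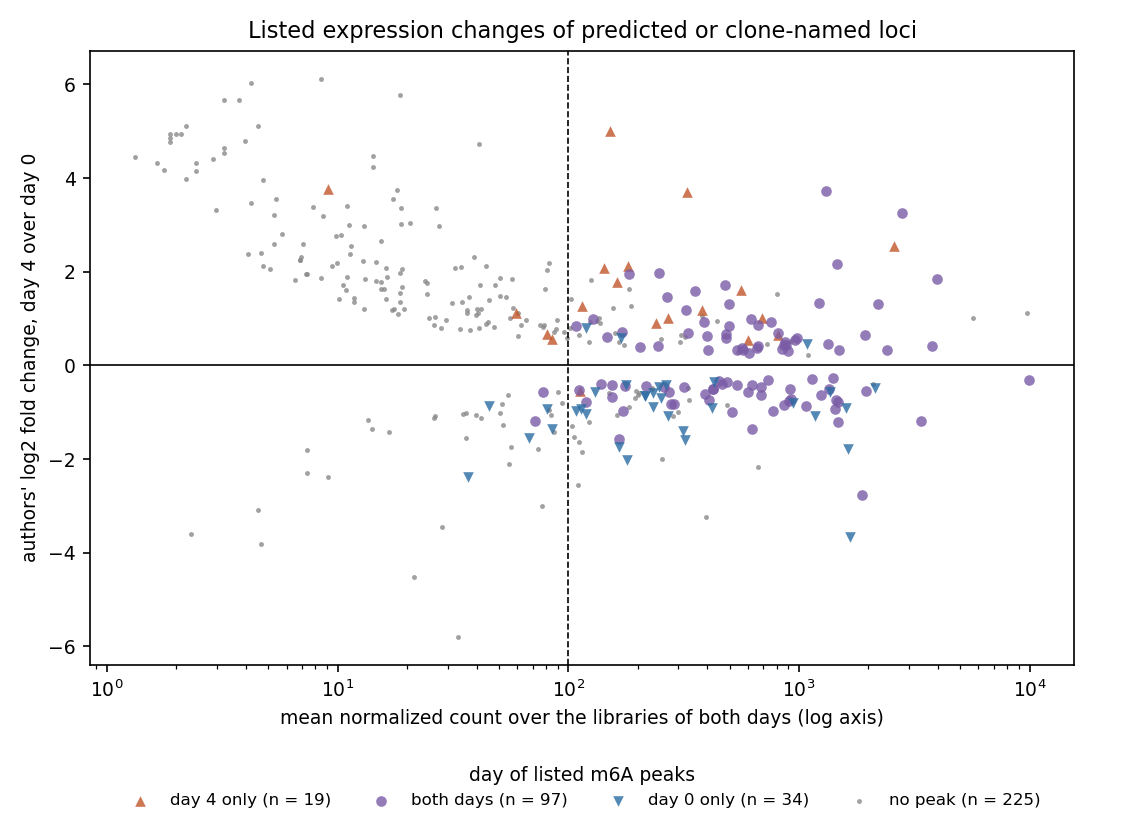
The authors' log2 fold change, day 4 over day 0 (vertical axis), against the mean normalized count (horizontal log axis) for the 375 listed members, by the day of their listed m6A peaks, with a dashed line at a mean of 100. Loci with peaks at day 4 only lie above zero in 18 of 19 cases, loci with peaks at day 0 only lie below it in 31 of 34, and most loci without a peak lie left of the dashed line.

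Peaks listed on a single day went with the direction of expression. Of the 25 loci with peaks at day 4 only, 18 were higher, 1 was lower and 6 were not listed. Of the 47 with peaks at day 0 only, 3 were higher, 31 lower and 13 not listed. The 148 loci with peaks on both days had 48 higher, 49 lower and 51 not listed, an even split like that of other names with peaks on both days (1930 of 3854 listed ones higher, 50.1%). Among other names listed in both places, 448 of 478 with peaks at day 4 only were higher and 734 of 763 with peaks at day 0 only were lower. The RNA level of a locus moved with the listing of its peaks, and its part in peak calling was not tested.

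The largest rise at a mean of 100 or more was that of Gm6093, a lncRNA between the Serpinb9 and Serpinb6 genes of chromosome 13, at a log2 fold change of 5.01 (SE 0.29, DESeq2 adjusted p = 4.3e-64) in the authors' deposited table. It had 2 peaks at day 4, the stronger at chr13:33564165-33564313 on the minus strand, and 0 at day 0. Mab21l4 rose by 3.73 (SE 0.12), with 3 peaks at day 4 and 1 at day 0, in the authors' deposited table. Morrbid (Gm14005), a lncRNA known in mouse myeloid cells as a repressor of its neighbour Bcl2l11, rose by 3.69 (SE 0.16) and had 4 peaks at day 4 and 0 at day 0 in the authors' deposited tables. Bcl2l11, which codes for the pro-apoptotic protein Bim, was also higher, at 2.56 (SE 0.13) in the authors' deposited table. 2300002M23Rik, whose RefSeq neighbour is the corneodesmosin gene Cdsn, rose by 3.25 (SE 0.14) with 2 sites of gained methylation (0.99 and 0.39), while Cdsn rose by 0.79 (SE 0.12) in the authors' deposited table.

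Gm6644 at Akr1b3 came next with 2.55, and then the lncRNA Tmem238l (9130409J20Rik) with 2.17 and Fndc10 (B930041F14Rik) with 2.12 in the authors' deposited table. Gm2016 (2.08) and Gm5662 (1.95) lie close to each other on chromosome 12, and reads shared between such predicted copies were not resolved here. Gm38426 rose by 1.97 and adjoins Dnase2a, which rose by 1.90, in the authors' deposited table. Among members with a present gene name, Ccdc9b (A430105I19Rik) rose by 1.84, the aminopeptidase gene Aopep (2010111I01Rik) by 1.62, Fam234b (8430419L09Rik) by 1.52 and Tcim (1810011O10Rik), a regulator of Wnt signalling, by 0.92 in the authors' deposited table. Aopep had 3 peaks at day 4 and 0 at day 0, and Ccdc9b had 5 on each day.

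The largest falls at that level were in the glutathione S-transferase alpha cluster of chromosome 9, genes of detoxification. Gm3776 fell by 3.66 (SE 0.12, DESeq2 adjusted p = 3.4e-212) and Gm10639 by 3.25 (SE 0.20) in the authors' deposited table. Their neighbours Gsta1 (-3.44, SE 0.12) and Gsta2 (-3.35, SE 0.15) fell as well in the authors' deposited table, and near-identical copies in this cluster may share reads. Gm3776 had 0 peaks at day 4 and 2 at day 0. 2410006H16Rik, a lncRNA whose span holds the snoRNA genes Snord49a, Snord49b and Snord65, fell by 2.77 (SE 0.17) with 1 peak on each day in the authors' deposited tables. The pseudogene Gm15645 (-2.55), Cip2a (C330027C09Rik, -2.17), which codes for an inhibitor of the phosphatase PP2A, the lncRNA 5430416N02Rik (-2.03) and the selenoprotein gene Selenoh (2700094K13Rik, -2.00) followed in the authors' deposited table. D630045J12Rik (-1.84), Zfas1 (1500012F01Rik, -1.79) and Gm20219 (-1.74) completed the list of 10 in the authors' deposited table. Smaller falls among members with a present gene name were those of Tmem268 (6330416G13Rik, -1.53), Hpf1 (2700029M09Rik, -1.41), which directs ADP-ribosylation to serines at DNA breaks, and the carnosine methyltransferase gene Carnmt1 (2410127L17Rik, -0.91) in the authors' deposited table. Hpf1 had 0 peaks at day 4 and 2 at day 0, and Carnmt1 had 0 at day 4 and 1 at day 0.

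The members with the highest mean normalized counts were Gm6548, at 9962, Gm5478, at 9765, and Gm5414, at 5671. The pseudogene Gm6548 was slightly lower at day 4 (-0.32, SE 0.10) and had 2 peaks at day 4 and 3 at day 0 in the authors' deposited tables. Gm5478 and Gm5414 had no listed peak and rose by 1.11 (SE 0.15) and 1.02 (SE 0.11) in the authors' deposited table. Both lie on chromosome 15 next to the keratin genes Krt6b (0.87), Krt6a (0.80) and Krt5 (0.96), all higher in the authors' deposited table. Reads of these abundant keratins and of the 2 predicted genes cannot be told apart here.

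Among lncRNA members with a peak 16 of 46 were higher, 19 lower and 11 not listed, and among pseudogenes with a peak 2 of 21 were higher, 12 lower and 7 not listed. For 12 of the 21 pseudogenes the peaks lay at a gene on another chromosome. Among these were the 2 higher ones, Gm6644 and Gm7367, and several of the lower ones, so this split may not be one of the pseudogenes themselves. Protein-coding members with a peak had 51 of 152 higher, 49 lower and 52 not listed. Among other names with a peak, 2407 of 7772 were higher, 2688 lower and the rest not listed (65.6% listed). Of the 10 lncRNA loci with a present gene name, 8 were listed, 4 higher and 4 lower. Morrbid, Tmem238l and Mirt1 (5830416P10Rik, 1.19), with 2 peaks at day 4 and 0 at day 0, were higher, and so was Oip5os1 (0.33) in the authors' deposited table. Zfas1 (-1.79), Dubr (-0.94), Snhg15 (-0.88) and Wincr1 (Gm12603, -0.88) were lower in the authors' deposited table, and all of these had peaks at day 0 only. Norad and Ube2d-ps (2210015D19Rik) were not listed and had peaks on both days. Zfas1 and 2410006H16Rik both hold snoRNA genes within their RefSeq span, which are cut from introns of the host transcript.

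In both comparison tables together stood 29 members. Methylation and expression went the same way in 16 of them (55.2%), against 763 of 1392 other names (54.8%). Gain with higher expression was found in 12 members, gain with lower in 6, loss with higher in 7 and loss with lower in 4. Resf1, with 11 peaks at day 4 and 8 at day 0, lost methylation at 1 site (-0.62) in the authors' deposited tables. Its RNA rose by 1.30 (SE 0.15) in the authors' deposited tables. Gm14325, with 4 peaks at day 4 and 1 at day 0, lost methylation at 1 site (-1.60) in the authors' deposited tables. Its RNA rose by 1.60 (SE 0.13) in the authors' deposited tables. In the opposite sense, Zfas1 gained methylation (1.57) while its RNA fell by 1.79, and Gm3776 gained 1.83 while its RNA fell by 3.66 in the authors' deposited tables. These were the 2 gains that overlapped only a day 0 peak. 6430548M08Rik, with 4 peaks at day 4 and 8 at day 0, gained 0.59 at 1 site and rose by 1.33 (SE 0.11) in the authors' deposited tables. The nearby pseudogenes 2610005L07Rik and 6820431F20Rik of chromosome 8 each had 1 site listed as a loss (-0.72 and -0.56) in the authors' deposited tables. These sites spanned 25668 and 25628 bp on the genome. Listed peaks were 5 at day 4 and 2 at day 0 for 2610005L07Rik, and 3 on each day for 6820431F20Rik. Both names fell in expression (-0.50 and -0.78) in the authors' deposited tables. Both are described as cadherin 11 pseudogenes, and reads shared between them were not resolved here.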

How the data were processed

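Input and m6A-immunoprecipitated polyadenylated RNA of mouse keratinocytes was sequenced in 12 libraries, 3 per group, and nothing in the labels ties replicates to separate animals. Reads were aligned to mm10 with HISAT2 2.1.0 and expression was compared with DESeq2 1.18.1, per the submitters' processing notes. The sources used here do not name the peak caller, the methylation test or the counting step, or say how replicates were joined. The peak lists hold the authors' enrichment score and unadjusted p-value per peak. For expression, the deposited columns are the authors' mean normalized count (a normalized signal per gene, averaged over libraries), log2 fold change, SE and adjusted p-value, per the file headers. For methylation they are the authors' log fold change, handled as a score since no log base is given, and false discovery rate. Both comparison tables list called features only. Depth per library is unknown.

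Members were rows whose name matches Gm and digits or ends in Rik. Peaks were counted, matched to RefSeq by symbol or synonym, and intersected by at least 1 bp on the same strand (Python 3.11.15, pandas 2.3.3). Numbers tested were derived from the deposited p-values and their Benjamini-Hochberg adjustment, by a step tested on simulated data. With no value per library, no test was run beyond those the authors deposited. Coordinates are 1-based. Named items were the 5 highest-scoring peaks a day, the 6 loci with most peaks, the 10 largest gains, losses, rises and falls (rises and falls at a mean of 100 or more), infinite sites, the 3 highest means, members of both comparison tables and members with a present gene name. Pairs sharing coordinates and other items were chosen after their values were seen. The members and lists were chosen with earlier results of these data known. Alternative limits on p, score, overlap, level, name and place were tried.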

Additional observations from a re-analysis of the deposited data

How the results depend on the processing

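Under the 74 alternative values computed for 12 results, 53 stayed within the bounds set for a change and 21 moved. The bounds were the exact binomial interval of a share, or a fixed factor for a number. Some outcomes were set by the design, so this tally does not measure stability. A peak p limit of 0.01 kept all 379 and 430 member peaks. Gm and Rik names alone are parts of the members and had to hold fewer peaks, sites and genes. Among peaks above the median score the members' share of day 0 peaks was 1.83% against 2.16%, and 71.4% of those peaks overlapped a day 4 peak against 63.3%. Gm names alone held 0.423% of day 4 and 0.356% of day 0 peaks, 58.1% of their loci were listed on both days, 8 sites were called with 87.5% gains, and 118 genes were differentially expressed. Rik names alone held 1.63% of day 4 and 1.80% of day 0 peaks. Requiring an overlap of 50% of both spans gave 50.4% of day 4 and 44.7% of day 0 peaks, and 50% of the member peak gave 68.3% and 53.3%. A false discovery rate limit of 0.01 kept 16 sites, of which 43.8% were gains, and 9 loci were in both tables at 0.01. A 2-fold change left 212 genes, 73.6% higher, and a mean count of at least 100 left 192, 48.4% higher, so the majority of higher members was not found at that level. Matching by symbol alone called 89 of 220 loci protein-coding (40.5%), against 69.1%. The 75 loci matched by synonym stayed in that total without a type, so the share had to fall. Leaving out members placed on another chromosome, or Gm2a, both added after the data were seen, moved no result beyond the bounds. Without Gm2a 429 of the 430 day 0 peaks remained, so that setting could move little. No paired analysis was possible because the deposited files hold no column per replicate, and for the same reason no replicate could be left out. Unknown depth limits what an unlisted peak or gene shows.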
